A study of Rattus norvegicus with 29 samples.

Results

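Open chromatin of the dentate gyrus (DG) was compared with that of Ammon's horn (CA) in saline-treated rats, by the 8 ATAC-seq libraries of these samples out of 29 in the series: replicates 1 to 4 of DG and replicates 1 to 4 of CA. In ATAC-seq a transposase cuts accessible DNA and inserts sequencing adapters, so that the number of reads over an open chromatin region (OCR) rises with its accessibility. The animals were adult male Sprague-Dawley rats that had received 4 intraperitoneal injections of saline (1 mL/kg), 2 h apart, as controls for methamphetamine (METH). The labels give no other treatment and no genetic change. The peak names show that equal replicate numbers of DG and CA come from the same rat, so 4 rats gave both regions. In these names a tag is spelled one way for replicates 1 and 2 and another way for replicates 3 and 4. The 2 sets of replicates are called batches here, although the labels state no batch for these libraries.

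The DG and CA are the main fields of the hippocampal formation. The DG is packed with small granule neurons, receives entorhinal input and is one of the places in the adult brain where neurons are still made. Its axons, the mossy fibres, run to the pyramidal neurons of the CA, which hand the signal through the CA subfields to the hippocampal output. Both are dissected tissues with glia, interneurons and vessel cells besides the principal neurons, so in such bulk samples a smaller share of cells with an open site and a lower accessibility per cell cannot be told apart. An rn6 annotation was not used here, so neither region could be checked against granule or pyramidal marker genes, and the regions are named as the labels name them.

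The question was which sites are more open in one hippocampal field than in the other when no drug is given. No OCR met the threshold used for saline regions in the study, an FDR under 0.01 with a fold change above 2. The study compared each region with all the others, after removing unwanted variation, and reported OCRs specific to each field. DG against CA alone, without that step, is a different comparison. Of 95419 OCRs tested by edgeR's quasi-likelihood test, 0 (0%) were called, and the lowest FDR was 1.000. Before adjustment, p was under 0.05 at 316 OCRs (0.331%) that had more counts in DG and at 31 (0.0325%) that had more in CA. Here and below, more counts in a field means a higher value after the scaling of the libraries, not more raw reads. A calibrated test with no difference anywhere would put a share of 0.05 of the OCRs under this level. Fewer fell there in this fit, so these OCRs are not read as signal. Nor do the 0 calls show that the fields are equal. DESeq2 also called 0, with 550 OCRs at an unadjusted p under 0.05. The direction of these low-p OCRs was not stable to the scaling of the libraries: TMM normalization gave 138 higher in DG and 109 higher in CA, and took the median log2 fold change of the tested OCRs from 0.04 to -0.06.

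The same test with the same number of libraries did separate the hippocampal fields from the nucleus accumbens (NAc), the ventral part of the striatum. NAc against DG gave 10558 called OCRs of 97433 (10.8%), and NAc against CA gave 4852 of 97464 (4.98%). The median standard error of a log2 fold change was 0.42 for DG against CA, beside 0.34 and 0.39 for the NAc comparisons. A fitted fold above 2 in either direction was found at 0.581% of OCRs between DG and CA and at 22.9% and 23.3% between NAc and each field. A DG to CA difference within the spread between libraries was not detectable with 4 rats.

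Pairing by rat did not change the number of calls. With the rat as a block 0 OCRs were called, the lowest FDR was 0.999, and the OCRs with an unadjusted p under 0.05 rose to 1734 with more counts in DG and 177 with more in CA. Within a batch, with 2 rats each, 0 were called and an unadjusted p under 0.05 was found at 5383 OCRs in replicates 1 and 2 and at 4290 in replicates 3 and 4. Single libraries moved how many OCRs reached this level. The total of 347 became 4102 without CA replicate 4, 573 without DG replicate 2, 524 without DG replicate 4, 220 without DG replicate 1 and 151 without CA replicate 1, with 0 called each time. One fit chosen after seeing the data, with TMM, the rat as a block and the share of counts in the most open OCRs as a covariate, called 23 OCRs, all higher in CA. That fit had 978 OCRs at an FDR under 0.05 (34 higher in DG, 944 higher in CA). Its unadjusted p was under 0.05 at 14240 OCRs (4483 higher in DG, 9757 higher in CA). The same terms with upper-quartile scaling called 0, with 159 OCRs at an FDR under 0.05 (14 higher in DG, 145 higher in CA). There the unadjusted p was under 0.05 at 15185 OCRs (9135 higher in DG, 6050 higher in CA). These terms leave 2 residual degrees of freedom, and the covariate comes from the same counts. Both fits are described with the alternatives.

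The sites that differed most are described next, although none is past the threshold. They are the 10 OCRs in each direction with the lowest p among those with a fitted fold above 2 and the same direction in all 4 rats, of 224 such OCRs with more counts in DG and 36 with more in CA. Values are CPM, read counts scaled to 1000000 per library with upper-quartile library sizes, for replicates 1 to 4 in order, positions are on rn6, and a positive log2 fold change means more accessibility in DG. Each of the 20 had an FDR of 1.000 when rounded, by edgeR's quasi-likelihood test.

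The OCR with the lowest p (chromosome 5, 17146010 to 17146571, 562 bp) had 1.24, 1.83, 0.927 and 3.08 CPM in DG and 0.623, 0.197, 0.436 and 0.643 CPM in CA. Every DG library lay above every CA library, with DG replicate 4 the highest and CA replicate 2 the lowest. The log2 fold change of 1.87 ± 0.53 (SE) was alike in both batches, 1.89 in replicates 1 and 2 and 1.88 in replicates 3 and 4. The choice by fold and direction in all 4 rats favours one direction in both batches, here and at the sites below. These are shallow sites: the same OCR had 5.44 ± 1.92 CPM (SD, n = 4) in NAc, above both hippocampal fields. The second (chromosome 2, 89642028 to 89642970, 943 bp) had 3.53, 2.28, 5.98 and 4.32 CPM in DG and 0.831, 0.788, 0.872 and 2.25 CPM in CA. Its groups did not overlap either, but only just, since CA replicate 4 stood well above the other CA libraries and close to DG replicate 2. Its log2 fold change of 1.73 ± 0.49 (SE) was 1.83 and 1.68 in the batches.

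An OCR on chromosome 4 (82962430 to 82962921, 492 bp) had 2.0, 0.914, 1.96 and 0.879 CPM in DG and 0.415, 0.591, 0.291 and 0.597 CPM in CA. In DG it was high in replicates 1 and 3 and low in replicates 2 and 4, and no library of one field reached into the other. Its log2 fold change of 1.56 ± 0.47 (SE) rested on 4 to 21 counts per library. A wider OCR on chromosome 5 (22318754 to 22319978, 1225 bp) had 9.72, 5.39, 5.26 and 4.03 CPM in DG and 2.08, 1.51, 3.41 and 2.76 CPM in CA. DG replicate 1 was the highest and the groups did not overlap, but the batches differed in size, with a log2 fold change of 2.07 in replicates 1 and 2 and 0.58 in replicates 3 and 4, beside 1.31 ± 0.40 (SE) over all.

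Another OCR on chromosome 4 (56071566 to 56072462, 897 bp) had 7.72, 5.76, 6.49 and 6.01 CPM in DG and 2.35, 2.1, 3.12 and 4.68 CPM in CA. Its DG libraries were close together, at 6.49 ± 0.872 CPM (SD, n = 4), and all lay above CA replicate 4, the highest CA library. The log2 fold change of 1.07 ± 0.34 (SE) was 1.60 in the first batch and 0.66 in the second. A chromosome 16 OCR (9846455 to 9846993, 539 bp) had 3.62, 5.39, 3.09 and 4.54 CPM in DG and 1.73, 1.12, 1.74 and 2.48 CPM in CA, and again no overlap between the fields. Its NAc level of 1.5 ± 0.718 CPM (SD, n = 4) was close to the CA level. The largest fitted difference of the 10, 2.25 ± 0.72 (SE) on chromosome 7 (77854288 to 77855178), came from DG replicates 1 and 3 at 2.67 and 6.08 CPM. DG replicates 2 and 4, at 0.731 and 0.879 CPM, lay at the level of the CA libraries, 0.328 to 0.799 CPM, and without DG replicate 3 the log2 fold change was 1.4.

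The 3 other sites with more accessibility in DG lay on chromosome 6 (25148692 to 25149127), chromosome 9 (115652323 to 115653060) and chromosome 15 (82174374 to 82175591), with log2 fold changes of 1.44, 1.66 and 1.23. The chromosome 15 OCR was faint in the hippocampus, at 1.4 ± 0.345 CPM in DG and 0.589 ± 0.134 CPM in CA (SD, n = 4 each), beside 14.5 ± 8.58 CPM (SD, n = 4) in NAc. Across the 10 sites the raw counts ran from 3 to 102 per library, and 8 of the 10 had a DG mean below 4.54 CPM, the median level over all OCRs tested.

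The 10 sites towards CA all had a CA mean below that median level. The lowest p was at an OCR on chromosome 18 (75243129 to 75243807, 679 bp), with 0.858, 0.274, 1.03 and 0.366 CPM in DG and 1.8, 1.18, 2.62 and 1.52 CPM in CA. Within each rat CA was higher and the groups did not overlap, with DG replicates 1 and 3 just under CA replicate 2. Its log2 fold change of -1.50 ± 0.51 (SE) was -1.38 and -1.60 in the batches. On chromosome 5 an OCR of 364 bp (139334169 to 139334532) had 0.572, 0.822, 1.03 and 0.513 CPM in DG and 1.66, 1.38, 1.38 and 1.47 CPM in CA. The CA libraries were nearly level, the DG libraries all lay below them, and the log2 fold change of -1.01 ± 0.39 (SE) is not past the threshold.

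The strongest of the CA-side sites by level was on chromosome 1 (157157373 to 157158071, 699 bp), with 1.91, 2.28, 1.85 and 1.25 CPM in DG and 2.7, 5.12, 4.21 and 2.57 CPM in CA. CA replicates 2 and 3 were high, CA replicates 1 and 4 stood only a little above DG replicate 2, and the log2 fold change of -1.01 ± 0.39 (SE) was -0.89 and -1.14 in the batches. It also had a peak in every CA library and in no DG library. The 7 remaining sites had log2 fold changes between -1.18 and -1.01 and lay on chromosomes 1, 7, 8, 9, 13 and 17. In 8 of the 10 CA-side sites and in 4 of the 10 DG-side sites the NAc mean exceeded the means of both hippocampal fields. The mean of the subventricular zone (SVZ) in saline rats did so in 10 and 5 of them. The share of such OCRs among all tested was not computed, so nothing is read from these counts. All 20 sites kept their direction under TMM normalization, which their choice by fold and direction in the same libraries favours.

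**Figure D1:**
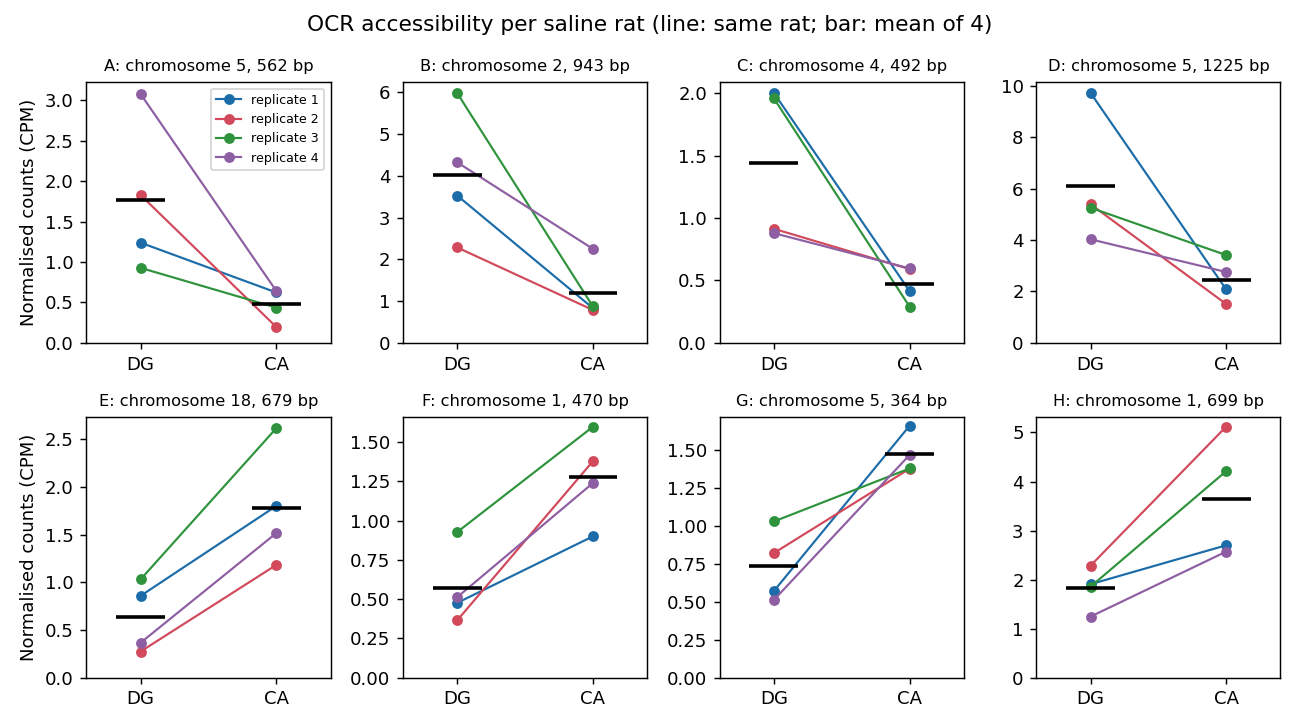
Accessibility in CPM (vertical axes, each from 0) of the 4 OCRs with the lowest p towards DG (panels A to D) and towards CA (panels E to H) in the saline rats, by the rule given above. Points are libraries, lines join DG and CA of 1 rat and black bars are means of 4. The rule requires every line to slope the same way within a panel, and the vertical scale differs between panels. None of these OCRs is past the threshold.

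Looking at direction alone, DG exceeded CA in all 4 rats at 7893 (8.27%) and CA exceeded DG in all 4 at 2239 (2.35%). All DG libraries lay above all CA libraries at 635 OCRs (0.665%), and the reverse held at 118 (0.124%). This excess towards DG depended on the scaling, since TMM library sizes gave 3499 and 5112 for the rats and 235 and 384 for the groups. If the 8 libraries were unrelated, a share of 0.0286 of OCRs would separate in one direction or the other, and fewer did under either scaling. Most differences without overlap were small: the median log2 fold change was 0.53 at the OCRs more open in DG and -0.49 at those more open in CA, and 48 and 5 of them passed a 2-fold difference.

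Precision was best at well-covered OCRs. In the highest quintile of OCRs by level, above 11.1 CPM, the median standard error was 0.26 and 0% had a fitted fold above 2, beside 0.53 and 1.81% in the lowest quintile, under 2.73 CPM. The median log2 fold change was 0.09 in the widest quintile (959 to 3796 bp) and -0.02 in the narrowest (150 to 481 bp). The rats did not share one dependence on level: the median DG minus CA difference went from 0.50 in the lowest quintile to -0.03 in the highest in rat 1, and from -0.13 to 0.13 in rat 4 (log2 scale).

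Gene names were available for the OCRs that the study's table of human-orthologous regions places at 1 human gene, by exact match of the bounds, and 502 such OCRs at 467 genes were tested. The study had put an OCR in that table where its human counterpart holds a variant linked to a neurological trait, so these are not a sample of all OCRs. A name says where the human counterpart lies and not which rat gene the OCR acts on. None of the 502 was called, and their median log2 fold change was 0.08 beside 0.04 over all OCRs tested. An unadjusted p under 0.05 was found at 2, both higher in DG, beside 0.331% towards DG and 0.0325% towards CA over all OCRs tested. With TMM normalization the p at these 2 was 0.0590 (TRPM6) and 0.0428 (PLCB1), by edgeR's quasi-likelihood test. DG was higher in all 4 rats at 47 of the 502 OCRs and CA at 10, beside 8.27% and 2.35% of all OCRs tested.

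The lowest p of the named set was at TRPM6, which encodes a channel kinase for magnesium (rn6, chromosome 1, 234481809 to 234483333), with 41.7, 29.2, 16.5 and 14.5 CPM in DG and 19.0, 14.0, 10.2 and 11.2 CPM in CA. DG was higher in each rat, but the groups overlapped, since CA replicate 1 exceeded DG replicates 3 and 4. Its log2 fold change of 0.91 ± 0.36 (SE) was 1.11 in the first batch and 0.53 in the second, and 0.56 without DG replicate 1. PLCB1, a phospholipase C that acts below Gq-coupled receptors, had the other low p at a faint OCR (chromosome 3, 127901675 to 127902042), with 0.953, 3.01, 0.412 and 1.83 CPM in DG and 0.346, 0.328, 0.726 and 0.781 CPM in CA. DG replicates 2 and 4 were high, DG replicate 3 was below its own CA library, and the log2 fold change of 1.48 ± 0.61 (SE) was the largest among the genes of the lists described next but 0.96 without DG replicate 2.

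At ZNF423, a zinc-finger transcription factor of neural development, the OCR (chromosome 19, 20217184 to 20217862) had 6.48, 6.85, 5.36 and 6.08 CPM in DG and 5.47, 2.89, 4.0 and 4.09 CPM in CA. DG was higher in every rat, and a single CA library, replicate 1, lay inside the DG range. The log2 fold change of 0.58 ± 0.30 (SE) was not past the threshold. SH3GL2, which encodes endophilin A1 of synaptic vesicle recycling, carried OCRs of both kinds. One (chromosome 5, 103479339 to 103480549) had 31.4, 36.9, 26.2 and 22.3 CPM in DG and 21.5, 25.1, 21.1 and 21.9 CPM in CA, with DG higher in all 4 rats and a log2 fold change of 0.38 ± 0.21 (SE). The other (103577920 to 103578588) had 2.95, 2.65, 2.27 and 2.2 CPM in DG and 3.67, 4.6, 5.08 and 2.53 CPM in CA, with CA higher in all 4 rats and a log2 fold change of -0.66 ± 0.34 (SE). In both OCRs the groups overlapped.

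ANGPTL4, an inhibitor of lipoprotein lipase, was higher in DG in all 4 rats, with a log2 fold change of 0.50 ± 0.29 (SE). The same held for PER2 of the circadian clock, with 0.64 ± 0.39. HRK, a pro-apoptotic BCL2-family protein (0.62 ± 0.36), and DPY19L3, a mannosyltransferase (0.42 ± 0.25), were higher in DG in 3 of 4 rats. Without DG replicate 1 the log2 fold change was 0.30 for ANGPTL4, 0.36 for PER2 and 0.31 for HRK. For the transcript AC087477.2 the log2 fold change of 1.53 ± 0.85 (SE) came from 1 library. Its OCR had 13.9 CPM in DG replicate 1 and 0.732 to 1.96 CPM in the other DG libraries, and without DG replicate 1 the log2 fold change was -0.23.

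On the CA side PMEPA1, a feedback inhibitor of TGF-beta signalling (chromosome 3, 171316063 to 171316405), came first, with 1.33, 0.731, 1.13 and 1.76 CPM in DG and 1.52, 1.71, 2.98 and 2.8 CPM in CA. CA was higher in each rat although the groups overlapped, and the log2 fold change of -0.86 ± 0.44 (SE) was not past the threshold. TLE3, a Groucho-family corepressor, was also higher in CA in all 4 rats, at 3.41 ± 1.13 CPM in DG and 5.22 ± 3.06 CPM in CA (SD, n = 4 each), with CA replicate 3 far above the rest at 9.66 CPM. MYO6, a myosin motor (-0.71), RALGPS1, an activator of Ral GTPases (-0.43), STN1 of telomere replication (-0.60), CRB1 of cell polarity (-0.93), PCIF1, which methylates the mRNA cap (-0.38), and STARD3, a carrier of cholesterol (-0.55), had lower log2 values in DG, with 1 rat each in the opposite direction. ST18, a zinc-finger transcription factor (-0.55), was split 2 against 2.

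The 5 gene lists for neuronal signalling gave no call. Calcium channels and stores had 11 OCRs at 9 of 9 genes and a median log2 fold change of 0.03, with none at an unadjusted p under 0.05. CACNA1I, a T-type calcium channel (chromosome 7, 121549294 to 121549901), had the lowest p of that list, with 3.43, 7.31, 2.68 and 5.2 CPM in DG and 1.45, 1.71, 2.11 and 5.19 CPM in CA. DG exceeded CA in all 4 rats, but in rat 4 the values were almost equal, and the log2 fold change of 0.81 ± 0.49 (SE) was 1.76 in the first batch and 0.10 in the second. ATP2A2, the SERCA2 calcium pump of the endoplasmic reticulum, was a strong OCR of 66.3 ± 14.4 CPM in DG and 57.5 ± 12.9 CPM in CA (SD, n = 4 each), with DG higher in each rat and a log2 fold change of 0.20 ± 0.22 (SE).

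Glutamate and GABA receptors and their auxiliaries had 9 OCRs at 7 genes, none at an unadjusted p under 0.05, with a median log2 fold change of 0.26 and no OCR in one direction in all 4 rats. GRM8, a presynaptic metabotropic glutamate receptor, had 12.1, 14.1, 8.14 and 12.7 CPM in DG and 5.89, 2.76, 6.39 and 19.2 CPM in CA. CA replicate 2 was the lowest and CA replicate 4 the highest of the 8 libraries, so the CA libraries spanned the whole DG range. At GRM7, a receptor of the same kind, the OCR had 33.4, 27.1, 27.9 and 31.9 CPM in DG and 20.3, 14.5, 30.4 and 34.9 CPM in CA. Here too CA replicate 2 was the lowest and CA replicate 4 the highest library.

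Adhesion and guidance genes had 29 OCRs at 22 of 24 genes, a median of 0.14 and a range from -0.34 to 0.72 in log2 fold change, with none at an unadjusted p under 0.05. NEGR1, a surface protein of neurite growth (0.68 ± 0.43, SE), and CDH13, a cadherin without a cytoplasmic tail (0.53 ± 0.36, SE), had the lowest p. Transcription factors had 28 OCRs at 25 genes with a median log2 fold change of 0.02, led by ZNF423 and by TOX3, an HMG-box protein (0.49 ± 0.33, SE), and none at an unadjusted p under 0.05. The genes of cAMP, calcium and lipid signalling had 19 OCRs at 17 genes with a median of 0.03, 1 of them (PLCB1) at an unadjusted p under 0.05, and PHACTR3, a regulator of phosphatase 1 and actin, followed with 0.58 ± 0.42 (SE). Over all 5 lists no OCR separated the groups without overlap, beside 0.665% and 0.124% of all OCRs tested.

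**Figure D2:**
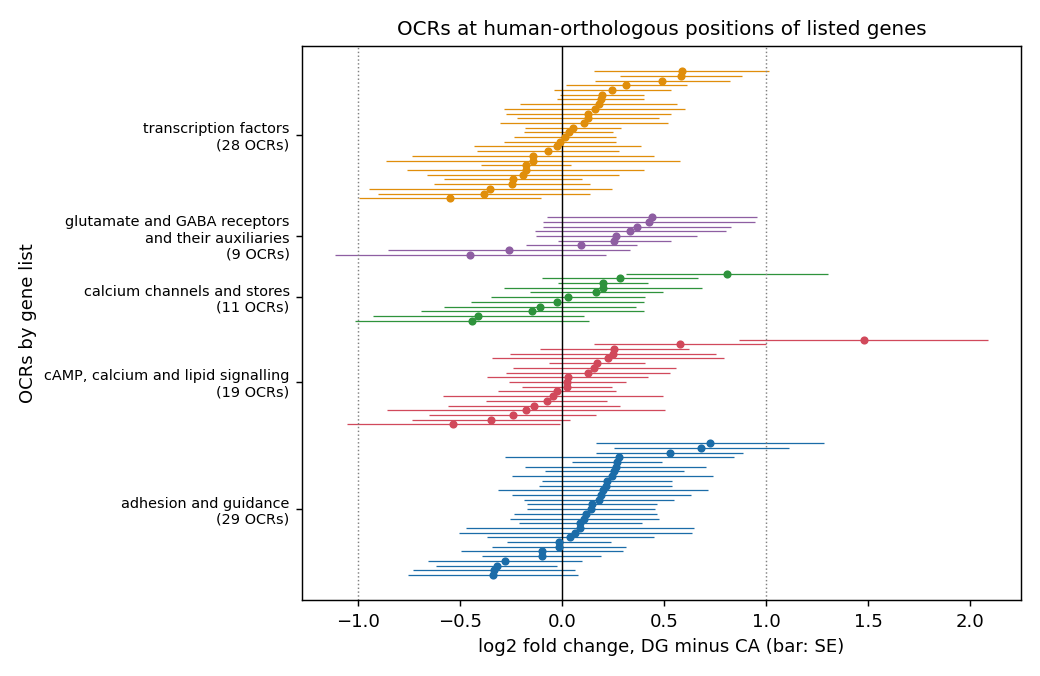
Log2 fold change of DG minus CA (horizontal axis, dotted lines at a 2-fold difference) for each OCR at a listed gene, sorted within 5 lists (vertical axis), with bars of 1 SE. The OCRs of each list lie on both sides of 0, and a single OCR, at PLCB1, lies beyond a 2-fold difference.

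At the 5 loci that the study places on rn6 the spread within CA exceeded the distance between the fields. The Tiam2 OCR, at a gene for an activator of Rac GTPases (chromosome 1, 44418133 to 44419600), had 19.2, 19.5, 18.2 and 22.9 CPM in DG and 13.2, 4.73, 21.1 and 23.5 CPM in CA. The Gabrb1 OCR, at a GABA-A receptor subunit (chromosome 14, 38804098 to 38805271), had 14.5, 15.3, 17.4 and 12.7 CPM in DG and 8.79, 4.86, 19.1 and 16.7 CPM in CA. Both were level over the DG libraries and low in CA replicates 1 and 2, and their log2 fold changes of 0.34 ± 0.41 and 0.26 ± 0.39 (SE) became 1.11 and 1.13 in the first batch and -0.12 and -0.26 in the second. Neto1, an auxiliary subunit of glutamate receptors (chromosome 18, 83486473 to 83487024), went from 1.27 to -0.35 and Sdk2, an adhesion protein of synaptic layers (chromosome 10, 102306830 to 102307559), from 1.10 to -0.26. St18 (chromosome 5, 12563213 to 12564343) had 14.3, 3.75, 20.3 and 9.89 CPM in DG and 6.85, 4.0, 27.5 and 10.0 CPM in CA. Replicate 3 was the highest and replicate 2 the lowest in both fields, with a log2 fold change between fields of -0.01 ± 0.62 (SE).

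Over all OCRs the libraries of a field did not group together. Of the variance of log2 CPM over the 8 libraries the field took 6.97%, the rat 65.8% and the remainder 27.3%. The rat and the remainder each have more degrees of freedom than the field, so unrelated libraries would also give them larger shares. The share of the rat was not tested. The batch, which is part of the difference between rats, took 35.8%. The share of the field did not pass the test (exact permutation over 70 assignments of libraries to fields, p = 0.914; with fields exchanged within rats, 16 arrangements, exact p = 0.750). The first principal component held 56.5% of the variance and put DG replicate 2 with CA replicates 1 and 2, at 169, 130 and 246, against the other 5 libraries at -157 to -52.5. DG replicate 1 thus lay with the second batch on this component.

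**Figure D3:**
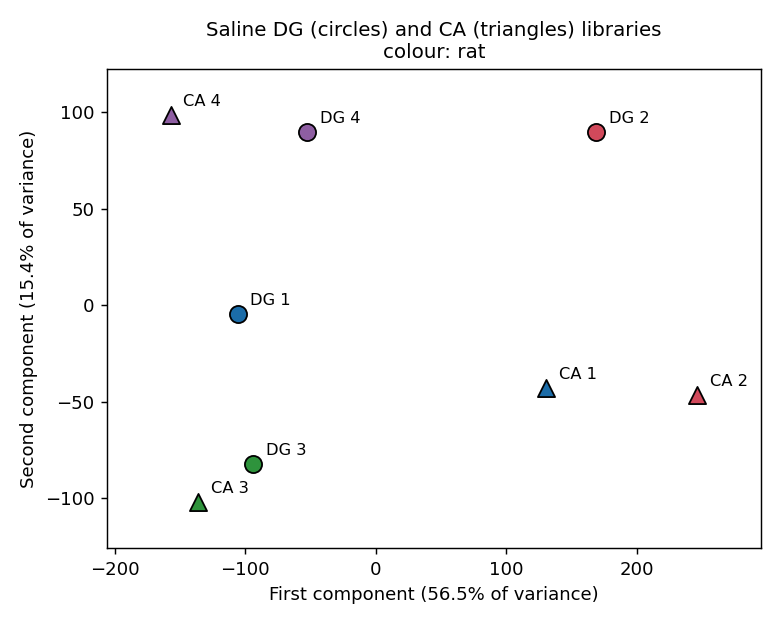
First and second principal components of log2 CPM for the 8 saline libraries, with the share of variance on each axis. Circles are DG, triangles are CA, and colours mark the rat; DG and CA overlap on both axes.

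The correlation of log2 CPM over OCRs between DG and CA of the same rat had a median of 0.92 over 4 pairs, from 0.83 in rat 1 to 0.93 in rat 3. Libraries of the same field from different rats had a median of 0.85 over 12 pairs, and libraries differing in both 0.86 over 12 pairs. Within a batch the median for the same field was 0.87 over 4 pairs. For 5 of the 8 libraries the closest other library was of the other field, and for 4 it was the other field of the same rat. Pairs share libraries and OCRs are not independent, so these values are a description.

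The direction of the DG minus CA difference over OCRs was not shared by the rats. Its correlation was -0.57 between rats 1 and 4, 0.24 between rats 1 and 2 of the first batch and 0.16 between rats 3 and 4 of the second, and it was between -0.15 and -0.10 for the 3 other pairs. The size differed too: a difference above 2-fold was seen at 28.2% of OCRs in rat 1, 15.3% in rat 2, 6.2% in rat 3 and 7.7% in rat 4. The median standard deviation of log2 CPM was 0.47 within DG and 0.59 within CA, against a median absolute difference of 0.20 between the field means.

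**Figure D4:**
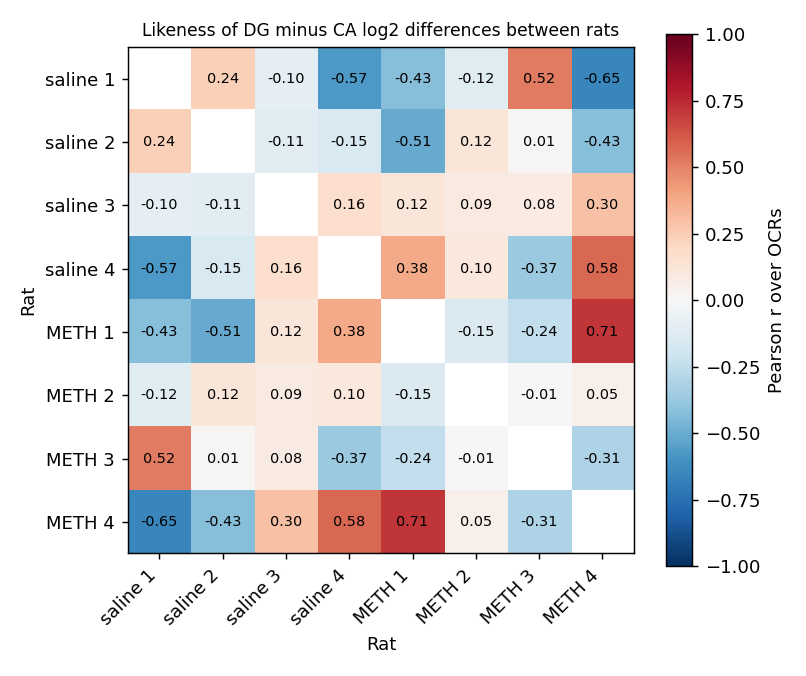
Pearson correlation over OCRs (colour and printed value) of the DG minus CA difference in log2 CPM between each pair of rats, for the 4 saline and the 4 METH rats on both axes. Saline rats 1 and 4 differ in opposite directions (-0.57), and positive and negative values occur within and between treatments.

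The libraries also differed in depth and in the concentration of their counts. DG replicates held 10.9, 12.2, 9.2 and 12.7 M counts in OCRs (1 M is 1000000) and CA replicates 15.4, 16.6, 12.2 and 19.4 M, so CA was deeper in each rat and one DG library reached into the CA range (exact permutation test, two-sided, p = 0.0571, 0.229 after adjustment over 4 measures; paired exact p = 0.125, the smallest that 4 pairs allow). The 10% of OCRs with the most counts on average took 52.4, 58.1, 47.3 and 48.4% of counts in DG and 55.3, 57.1, 45.5 and 45.9% in CA (exact permutation p = 0.886), high in the 3 libraries on the positive side of the first component and lower in the others. The part of depth in the differences was not tested, and the fits that hold this share as a covariate are those given above and with the alternatives.

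Peak lists, called in each library alone, held 78207, 69936, 64678 and 86852 peaks in DG and 78122, 66316, 90722 and 123299 in CA. The difference of -14696 peaks did not pass the test (exact permutation, two-sided, p = 0.314), and it was 1852 in the first batch and -31246 in the second. CA replicate 4 carried most of it, since the difference was -3468 without that library, and it was -22463 without CA replicate 2. The median fold enrichment of a peak over its background was 5.46 ± 0.515 in DG and 5.33 ± 0.523 in CA (SD, n = 4 each). A median of 73.8% of peaks were shared by DG and CA of a rat, beside 65.9% between rats within a field.

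By presence of peaks, 31140 of 98237 OCRs (31.7%) were open in all 8 libraries, 2 in every DG and no CA library, and 74 in every CA and no DG library. The 2 OCRs with peaks in DG alone were the 1225 bp site on chromosome 5 described above and one on chromosome 16 (60213646 to 60213992), with 8.67, 3.29, 4.64 and 3.0 CPM in DG and 2.42, 2.23, 2.54 and 2.16 CPM in CA. CA libraries were deeper, a difference whose part in these counts was not tested. For the OCRs with peaks in CA alone the median level was 3.58 CPM, the median log2 fold change -0.41, and 4 of 74 had an unadjusted p under 0.05, beside 0.0325% of all OCRs with more counts in CA. These OCRs were chosen by peaks of the same libraries, which favours more counts in CA, so nothing is read from these values. The lowest p among them was at chromosome 18 (31265202 to 31265987), with 2.48, 2.74, 2.99 and 2.86 CPM in DG and 4.08, 6.24, 5.23 and 3.81 CPM in CA. In the METH rats these counts of OCRs were 8 and 465.

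The same comparison was made in 8 libraries of 4 other rats that had received METH (4 injections of 10 mg/kg, 2 h apart), so treatment and animals both differ there. Again 0 of 95109 OCRs (0%) were called, with a lowest FDR of 0.521 by edgeR's quasi-likelihood test and 2197 OCRs (2.31%) towards DG and 4437 (4.67%) towards CA at an unadjusted p under 0.05. The total of 6634 became 36934 without DG replicate 3 and 12465 without CA replicate 2 of the METH rats, and 2127, 2573, 2476 and 2183 without DG replicates 1 and 4 and CA replicates 3 and 4. With the rat as a block it was 3979. The groups did not overlap at 0.814% of OCRs that had more counts in DG and at 2.03% that had more in CA. Of the 626 OCRs that separated towards DG in saline and were tested here, 261 (41.7%) had a higher DG value after METH, beside 43.3% of all OCRs. Of the 116 that separated towards CA, 57 (49.1%) had a higher CA value, beside 56.7% of all. Of the sites described one by one, 1 of 9 on the DG side and 5 of 8 on the CA side had the same direction in the METH rats.

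The chromosome 15 OCR was that 1 site on the DG side, with 1.63, 1.46, 0.985 and 0.476 CPM in DG and 0.937, 0.760, 0.721 and 0.810 CPM in CA after METH and a log2 fold change of 0.49 ± 0.43 (SE). DG was higher in 3 of the 4 METH rats and the groups overlapped. The chromosome 18 OCR on the CA side had 0.344, 1.12, 0.886 and 0.476 CPM in DG and 0.937, 0.928, 2.16 and 1.05 CPM in CA after METH. CA was higher in 3 of 4 METH rats, with a log2 fold change of -0.86 ± 0.50 (SE), beside -1.50 in saline. Neither value is past the threshold in either set of rats. In a joint fit of all 16 libraries the change of the DG minus CA difference between METH and saline rats was under an FDR of 0.05 at 0 of 96744 OCRs (0%), with 3626 at an unadjusted p under 0.05 and a lowest FDR of 0.720 by edgeR's quasi-likelihood test.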

How the data were processed

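ATAC-seq libraries had been made from frozen tissue by the omni-ATAC protocol, and the authors processed the reads with the AIAP pipeline on rn6. The deposited raw counts are reads per OCR in a merged set of 98237 regions. The authors' peak lists, called in each library alone, give the fold enrichment of each peak and the −log10 of its q-value. The labels and methods name neither a transposase offset nor a read counter.

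The 4 DG and 4 CA saline libraries were compared with edgeR 4.0.16 in R 4.3.3 (quasi-likelihood test, upper-quartile normalization, filtering by expression, Benjamini-Hochberg adjustment over all OCRs tested), after a check on simulated counts. Calls needed an FDR under 0.01 and a fold change above 2. The study also fitted unwanted-variation factors, of a number that its methods leave out, and these were not used here. DESeq2 1.42.0, TMM, other filters, the rat as a block and leaving out each replicate were alternatives. Equal replicate numbers pair the samples because the deposited peak names give the same animal for both fields. Log2 CPM values used a prior count of 2. Peaks were matched to OCRs with bedtools 2.31.1 by an overlap of at least 1 bp. Sites were named by the lowest p in each direction, with a fold above 2 and the same direction in all 4 rats; genes by the 10 lowest p in each direction among OCRs with 1 human gene and the 2 lowest in each of 5 lists. One gene that this rule names is not reported here. The members and lists were chosen with earlier results of these data known. Peak lists of NAc and SVZ were not used here. The 4 rats per field are separate animals, and PCR reads are not independent molecules.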

Additional observations from a re-analysis of the deposited data

Results flagged for a closer look

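In 3 of 116 groups of 4 libraries 1 library stood far from the other 3, by its gap divided by the range of the group, above the 95% limit of Dixon's test. Chance flags about 1 in 20 groups. The ratio was 0.943 for CA at the chromosome 2 OCR (89642028 to 89642970), where CA replicate 4 was the high library. It was 0.907 for DG at AC087477.2 and 0.853 for DG at HRK, and in both DG replicate 1 was the high library.

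At 8 of 53 OCRs described, DG and CA differed one way in all 4 saline rats and the opposite way in all 4 METH rats. Of the 53, 20 were chosen for one direction in all 4 saline rats. The share of such reversals over all OCRs was not computed, so nothing is read from this count. On the DG side in saline, the METH log2 fold change was -0.55 at the chromosome 9 OCR (115652323 to 115653060), -1.75 at the chromosome 7 OCR (77854288 to 77855178), -0.94 at ZNF423, -0.50 at ANGPTL4 and -1.64 at CACNA1I. On the CA side it was 0.47 at the chromosome 1 OCR (157157373 to 157158071) and 0.65 at the chromosome 13 OCR (88733686 to 88734118). The chromosome 6 OCR (25148692 to 25149127) was too low for the METH fit, and its log2 change of the DG minus CA difference between METH and saline rats was -3.03. By edgeR's quasi-likelihood test of that change no OCR was under an FDR of 0.05, with a lowest FDR of 0.720 and 3626 OCRs at an unadjusted p under 0.05.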

How the results depend on the processing

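No OCR was called between DG and CA under any of the alternatives run but 1. No named site of the 20 reversed, which their choice by fold and direction in the same libraries favours. With the rat as a block and no other added term 0 were called, and the OCRs at an unadjusted p under 0.05 rose from 347 to 1911. The block also left the 0 calls in the METH rats and the outcome of the tests of peaks and counts per library as they were. That 1 alternative, chosen after seeing the data, combined TMM, the replicate block and the share of counts in the top decile of OCRs as a covariate, and called 23 OCRs, all higher in CA. It had 978 OCRs at an FDR under 0.05 (34 higher in DG, 944 higher in CA). The covariate is computed from the same counts and this fit leaves 2 residual degrees of freedom. With upper-quartile scaling the same terms gave 0 called and 159 OCRs at an FDR under 0.05 (14 higher in DG, 145 higher in CA). In the METH rats 159 of these 159 had the same direction under the same fit, beside 59.5% of all OCRs, and 8 without the added terms, beside 33.4%. In saline the covariate without the block gave 0 called, a lowest FDR of 0.929. The cause was not tested. A fit of all 15 saline libraries gave 877 OCRs and one of all 29 libraries 1090 OCRs at an unadjusted p under 0.05, beside 347, with 0 called.

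Leaving out 1 replicate at a time gave 0 called each time. Over 53 named OCRs and 11 settings, 577 values kept their direction and 6 reversed. Most of these OCRs were chosen by low p in the same libraries, which favours a kept direction. The log2 fold change of AC087477.2 ran from -0.23 to 1.89, that of the Gabrb1 OCR from -0.0015 to 0.56, and that of the St18 OCR from -0.38 to 0.79 and was 0.12 with the replicate block. A stricter overlap between peak and OCR gave 112 OCRs with peaks in CA alone, beside 74. The lowest OCRs had the largest standard errors.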
